A study of Canis lupus familiaris with 5 samples.

Results

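The genes described here carry fatty acids into the heart muscle cell, oxidise them in the mitochondrion and pass the products through the citric acid cycle. They were chosen by name, as a list of 51 genes covering fatty acid uptake, the carnitine shuttle, beta-oxidation, the electron transfer flavoproteins, the citric acid cycle and the malate-aspartate shuttle. Of these, 33 had at least 1 probe set whose only gene symbol in the platform annotation was that gene, out of 2416 such genes in the whole series, and they had 53 probe sets between them. RNA from canine myocardium was hybridised to 5 oligonucleotide arrays, 2 labelled control (control 1a and 2a) and 3 labelled failing (failing 1a, 1b and 2a), from dogs in congestive heart failure. For 4 of the arrays, control 2a and all 3 failing ones, each cRNA was made from a pool of 3 dogs. The labels do not describe the RNA of control 1a and do not tell if failing 1a and 1b came from different pools. Breed, age, sex, heart chamber, treatment and the cause of the failure are not given in the sources used here. A group is therefore a few pools and not a set of single animals, and p-values measure only how these arrays vary, and part of that may be technical.

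Heart muscle draws most of its energy from long-chain fatty acids. These are taken up through CD36 and lipoprotein lipase, bound by FABP3, activated to acyl-CoA, and moved into the mitochondrion by carnitine palmitoyltransferases. There the beta-oxidation spiral cuts off acetyl-CoA units, the electron transfer flavoprotein hands electrons to the respiratory chain, and the citric acid cycle oxidises the acetyl group. Expression of many of these enzymes is controlled by PPARA and its coactivators, and failing hearts have often been described as shifting from fatty acids toward glucose. The comparison of failing with control arrays asks whether the transcripts of these steps differ.

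Values are linear intensities on a scale shared by the arrays, whose means were all 800 after the lowest and highest 2% of probe sets were left out. An intensity has an arbitrary unit and can be compared between arrays for 1 probe set, but not between probe sets. On each array 34.7% to 39.9% of probe sets were below 0. For the tests, every value below 20 was set to 20, called the floor here, before log2 was taken. Probe sets were tested where their 5-array log2 mean reached the median of all probe sets (7.13, an intensity of 140.1). That left 2301 probe sets, of which 29 belonged to 23 of the listed genes. Of the 29, 23 were at or above the floor on every array, and a fold change is given only for those. The other 24 probe sets of listed genes were too dim to test. The filter let in 3 member probe sets whose mean on the control arrays alone was under the limit (CPT1B, LPL and IDH3A) and 2 whose mean on the failing arrays alone was (ACADVL and HADHA), so counts over the tested members describe them and support nothing. The 18 listed genes with no such probe set (CPT1A, CPT2, SLC25A20, ACADM, ACADL, ACAA1, PPARA, MLYCD, CS, IDH3B, IDH3G, IDH2, DLD, SUCLA2, SUCLG2, SDHB, SDHD and FH) were not analysed here. A pair of probe sets named IDH3G together with SSR4, its neighbour in the dog genome, and were left out for that reason.

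Failing 2a stood apart from the other arrays. Its log2 intensities over the 2301 probe sets correlated with theirs at r = 0.511 to 0.533, against 0.666 to 0.798 among the other four, as a description across probe sets. Markers of heart muscle cells were bright in sum on every array, as the label myocardium says. Of 14 listed, 10 were on the array, and their brightest probe sets summed to 157882 to 165275 in control and to 126647 to 136541 in failing myocardium. Intensities are not comparable between probe sets, so such a sum mostly follows its brightest markers. Of these 10, MYH6, MYL3, TTN and MB were lower on every failing array, while ACTN2 and MYH7 were higher. MYH7 was below 0 on both control arrays and on failing 2a. The sum over 9 endothelial markers was 5710 to 6757 in control and 7855 to 16940 in failing myocardium, with 5 of the 9 higher on every failing array. Sums over 6 smooth muscle and pericyte markers (30559 to 53590 in control, 60643 to 85559 in failing) and over 9 skeletal muscle markers (23313 to 23764 and 24709 to 35150) were also higher on every failing array. The former was mostly DES. Of its 6 markers, DES and LMOD1 were higher on every failing array, while TAGLN and CNN1 were lower, CNN1 under the floor throughout. CKM was the largest part of the latter, but on failing 2a it read 12171, below both control arrays (16389 and 16447). Of the 9 skeletal muscle markers, MYH2, TNNI2, TNNC2 and ACTA1 were higher on every failing array, and MYH1, near 0 in control, was lower. Heart muscle cells express DES and CKM too. Sums over 9 fibroblast markers (7587 to 10164 in control, 8820 to 11833 in failing) and 2 red blood cell markers (3301 to 5270 and 4424 to 5549) overlapped. Of the fibroblast markers, COL1A2 and COL3A1 were higher on every failing array and 0 were lower on every one. For GAPDH the 3′ over 5′ intensity ratio, often read as a sign of RNA quality, was 2.24 ± 0.13 (SD, n = 2) on control and 1.39 ± 0.06 (SD, n = 3) on failing arrays. The same ratio for actin did not separate them, at 0.0899 and 0.108 in control and 0.192, 0.0873 and 0.205 in failing myocardium. It lay far below the GAPDH ratio on every array. These control probe sets are named for human sequences while the RNA was canine, and how far either ratio follows RNA quality was not tested. The marker sums that separate the groups and the GAPDH ratio move with the groups, and their part in the results that follow was not tested. In RNA of whole tissue, fewer cells of a type and less RNA per cell cannot be told apart.

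No probe set of a listed gene passed the adjusted threshold in limma (0 of 29), where 2 of all 2301 (0.0869%) did, both higher. At an unadjusted p under 0.05 there were 3 of 29 (10.3%), all higher in failing myocardium: the carnitine palmitoyltransferase gene CPT1B, 1 probe set of the trifunctional protein gene HADHB and 1 of the electron transfer flavoprotein gene ETFB. Over all tested probe sets the share was 9.47%, with 6.13% higher and 3.35% lower. The 3 member probe sets were of the s_at kind (CPT1B and HADHB) or the g_at kind (ETFB), not unique probe sets (at). The unique probe sets of HADHB and ETFB had negative differences, −0.61 and −0.87. Whether the s_at and g_at probe sets also read other transcripts was not tested. The control and failing values did not overlap in 9 member probe sets. These were the same 3 higher ones (10.3%, against 18.3% of all tested probe sets) and 6 lower ones (20.7%, against 11.5%), which belonged to FABP3, PLIN1, HADHA, ETFA, ETFB and OGDH. Over all tested probe sets that split was 420 higher to 264 lower, and it turned to 312 to 344 after quantile normalization and 279 to 388 after scaling to the 75th percentile, with 3 higher and 7 lower members under each. The other 20 overlapped. The shares called at an unadjusted p were near those of all probe sets. The median log2 difference, failing minus control, was −0.06 over the 29 and 0.11 over all 2301, and 14 of the 29 (48.3%) lay above 0 against 56.1% of all. The member median was −0.37 after quantile normalization and −0.26 after scaling to the 75th percentile, which moved the median of all probe sets to −0.05 and −0.10. It became 0.05 with failing 1a and 1b averaged, −0.60 when control 2a was left out, −0.16 when control 1a was and −0.21 when failing 2a was.

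**Figure D1:**
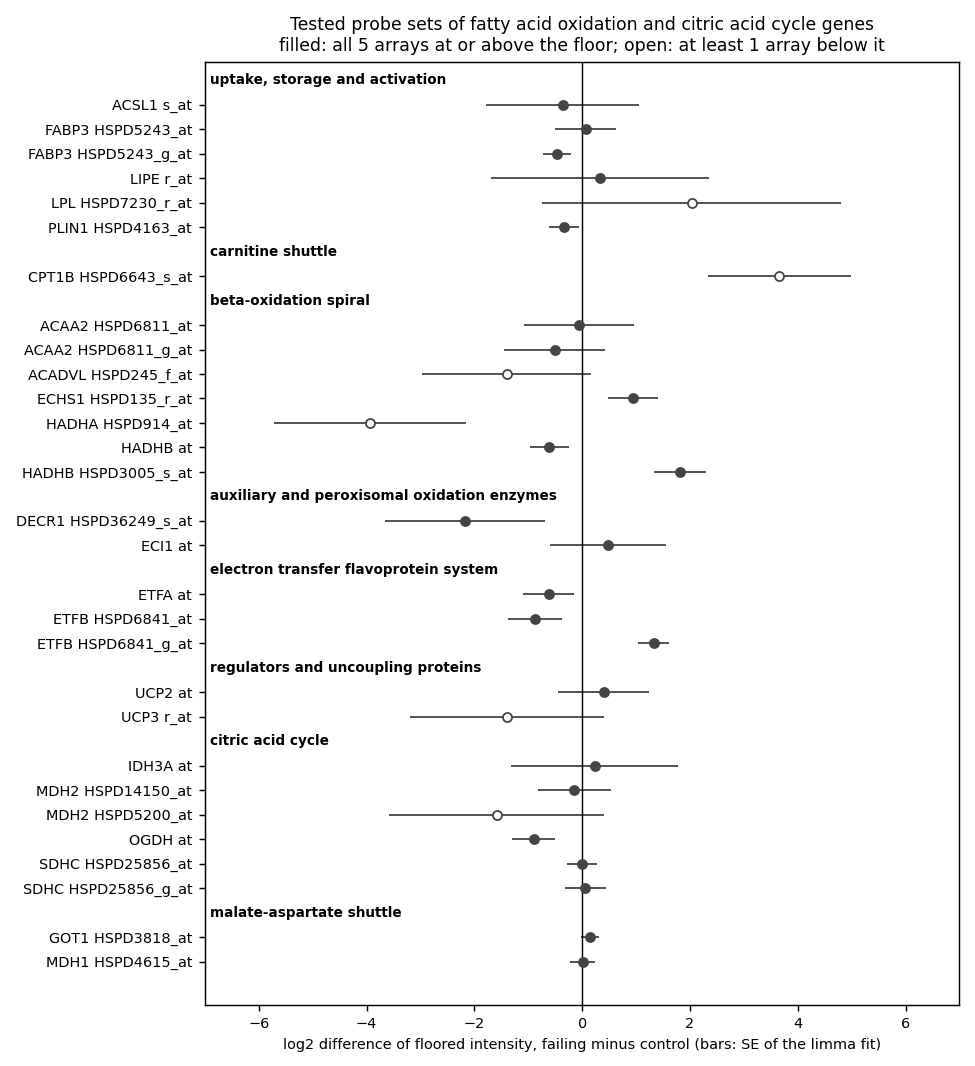
Log2 difference of floored intensity, failing minus control (x axis), for the 29 tested probe sets of listed genes, grouped by role. Points are the fitted differences, bars their SE from limma, and open points have at least 1 array below the floor of 20. CPT1B (3.66), HADHB HSPD3005_s_at (1.81) and ETFB HSPD6841_g_at (1.32) lie to the right of 0, HADHA (−3.94) and OGDH (−0.90) to the left, and MDH1 (0.01) and GOT1 (0.15) close to it.

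Uptake, storage and activation of fatty acids came first in the pathway, and 5 of its 7 genes were tested. FABP3, the fatty acid binding protein of heart muscle, had 2 tested probe sets. HSPD5243_g_at read 2535 and 2539 on control 1a and 2a, and 1596, 2062 and 1894 on failing 1a, 1b and 2a. All failing arrays lay below both control arrays, 1.38-fold lower, with a log2 difference of −0.46 ± 0.26 (SE, adjusted p = 0.645). HSPD5243_at read 1231 and 839 on the control arrays, against 957, 662 and 1893 on the failing arrays, with overlapping groups and a difference of 0.06 ± 0.56 that fell below 0 under both other scalings. The 2 probe sets of FABP3 therefore did not give 1 direction.

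PLIN1, which coats the lipid droplet of fat cells, read 4791 and 4686 on the control arrays, against 2793, 4128 and 4527 on the failing arrays. The groups did not overlap, although failing 2a lay close under the control arrays, and the difference was −0.34 ± 0.28 (adjusted p = 0.766), or −0.13 without failing 1a. Of 10 adipocyte markers, 3 were on the array, and their sum ran from 6061 to 6278 on control and from 5102 to 5983 on failing arrays, mostly from CFD. CFD was lower on every failing array, while RBP4 and APOE overlapped between the groups. The sum moved the same way as PLIN1, and its part in the PLIN1 result was not tested. LIPE, hormone-sensitive lipase, was tested through 1 probe set of relaxed design (r_at), which read 1948 and 119 in control and 2963, 61.2 and 1211 in failing myocardium. Its arrays differed more within than between groups, and its other probe set was below 0 on all arrays. The acyl-CoA synthetase gene ACSL1 read 713 and 1143 against 1128, 106 and 2904, a difference of −0.36 ± 1.43, and its dim probe set ran from −396 to 477.

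LPL, the lipase that frees fatty acids from lipoproteins at the vessel wall, gave no usable level. Its tested probe set HSPD7230_r_at read 801 and −1522 on the control arrays, against 2359.7, −1659 and 2941 on the failing arrays. Each group held a value far below 0 beside a positive one. Its dim probe sets were no clearer: HSPD7230_f_at ran from −661 to 775 with overlapping groups, and HSPD7230_i_at read −47.2 and 832 against −412, −1246 and −905, lower on every failing array and there below 0. CD36, the fatty acid translocase, was dim: HSPD26558_s_at read 80.1 and 92.1 in control and 64.3, −96.4 and −119 in failing myocardium, lower on every failing array but too near 0 for a test. HSPD26558_r_at of the same gene ran from −287 to 19.4, under the floor throughout. FABP4, which marks fat cells, capillaries and macrophages, had 2 dim probe sets whose values ran from −650.1 to 180.5. Of 6 macrophage markers on the array, 4 (CD163, ITGAM, AIF1 and FCER1G) were below the floor on every array, and LYZ was at 1697 on failing 2a and between 12.9 and 90.5 elsewhere. The sixth, TYROBP, was above the floor on every array, at 2844 and 3063 in control and 2853, 3057 and 4645 in failing myocardium.

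The carnitine shuttle was represented by CPT1B alone, the muscle form of the enzyme that commits long-chain acyl groups to the mitochondrion. Its probe set HSPD6643_s_at read −87.4 on control 1a, 289 on control 2a, and 1273, 1419.9 and 486 on failing 1a, 1b and 2a. All failing arrays lay above both control arrays, with failing 2a nearest to them. The log2 difference on floored values was 3.66 ± 1.33 (SE, unadjusted p = 0.0364, adjusted p = 0.495 in limma), and its size depended on the floor: it was 2.99 with a floor of 50 and 2.49 with a floor of 100. Because control 1a was below the floor, no fold is given. Without control 1a the difference was 1.73, and without control 2a it was 5.58.

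**Figure D2:**
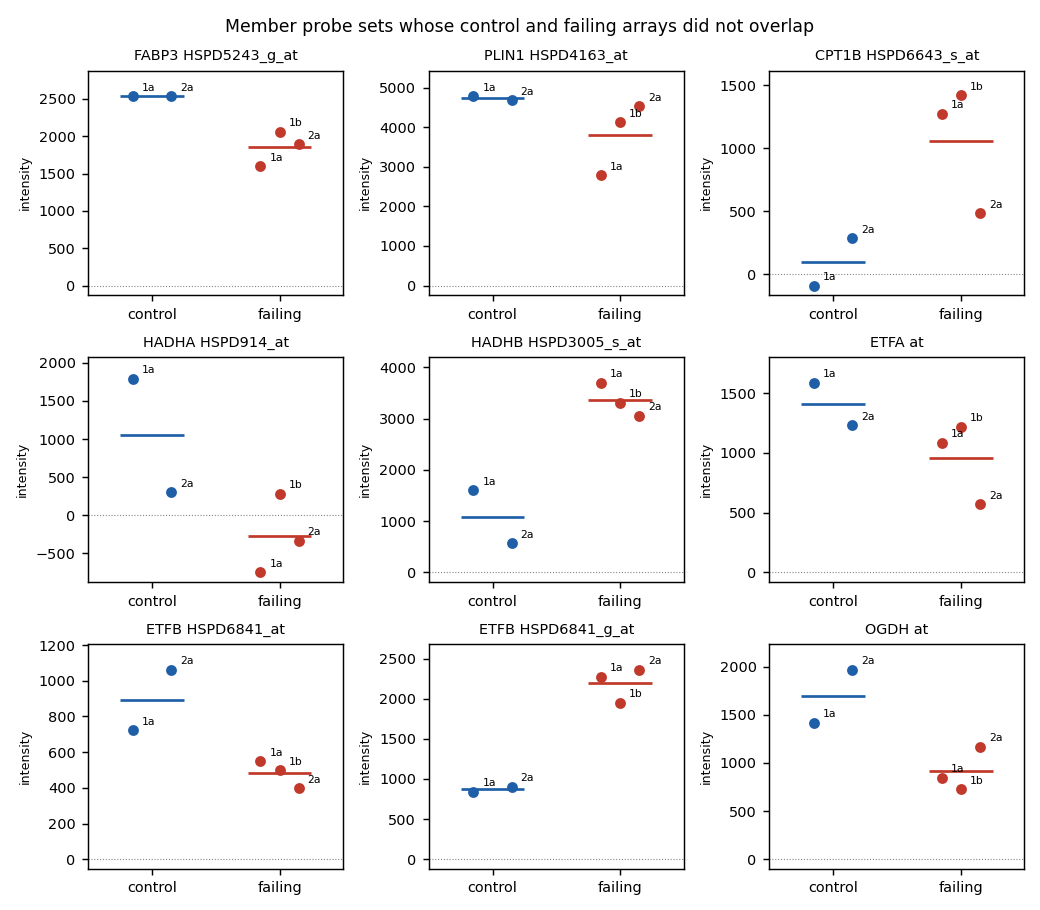
Linear intensity (y axis, arbitrary unit, different for each panel) of the 9 member probe sets whose control (blue, n = 2) and failing (red, n = 3) arrays did not overlap. Points are single arrays with their names, horizontal lines are group means, and the dotted line marks 0. FABP3, PLIN1, HADHA, ETFA, OGDH and 1 probe set of ETFB are lower on every failing array, and CPT1B, HADHB and the other probe set of ETFB are higher.

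Of the 9 genes of the beta-oxidation spiral, 7 had probe sets and 5 were tested. HADHA and HADHB encode the subunits of the trifunctional protein, which carries out the last steps of long-chain oxidation, and their genes lie next to each other in the dog genome (RefSeq annotation of UU_Cfam_GSD_1.0). HADHA read 1791 and 306 on the control arrays, against −748, 282 and −332 on the failing arrays. Every failing value was below both controls, but failing 1b lay close under control 2a, and 2 arrays were below the floor. Its log2 difference on floored values was −3.94 ± 1.78 (adjusted p = 0.567), −3.06 with a floor of 50 and −2.39 with a floor of 100.

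HADHB had 2 tested probe sets that went opposite ways. HSPD3005_s_at read 1602 and 565 on the control arrays, against 3697, 3309 and 3058 on the failing arrays, so failing values were higher throughout. The mean was 1083 ± 733 (SD, n = 2) in control and 3355 ± 322 (SD, n = 3) in failing myocardium, 3.52-fold higher, with a log2 difference of 1.81 ± 0.49 (SE, unadjusted p = 0.0113, adjusted p = 0.344). It was 2.57 without control 1a and 1.06 without control 2a. The other, a unique probe set (at), read 10391 and 6476 in control and 6503, 6456 and 3687 in failing myocardium. There failing 1a lay just above control 2a, so the groups overlapped, and the difference was −0.61 ± 0.36 (adjusted p = 0.666), which became −0.27 when control 1a was left out, −0.95 for control 2a and −0.34 for failing 2a. Another, HSPD3005_i_at, was below 0 on all arrays. HADHB was thus higher by 1 probe set and, without passing any threshold, lower by another, and the array does not show which follows the transcript.

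The remaining enzymes of the spiral did not separate. ECHS1, the enoyl-CoA hydratase, was read by HSPD135_r_at at 7220 and 5920 in control and 13007, 7197 and 21167 in failing myocardium. Failing 1b fell just below control 1a, and the difference was 0.94 ± 0.46 (adjusted p = 0.590), 1.92-fold. Its other two probe sets were dim, with values from −459 to 618. ACADVL, the acyl-CoA dehydrogenase of very long chains, read 262 and 352 in control and 223, 339 and −105 in failing myocardium, a difference of −1.40 ± 1.57 that rests on failing 2a: without that array it was −0.14. The thiolase gene ACAA2 read 699 and 207 against 635, 143 and 538 with HSPD6811_at and 394 and 240.2 against 192, 408 and 128 with HSPD6811_g_at. Both differences, −0.06 ± 1.02 and −0.51 ± 0.94, were smaller than their errors. ACADS, the short-chain dehydrogenase, was below 0 on all 5 arrays, and HADH, the short-chain hydroxyacyl-CoA dehydrogenase, ran from 16.1 to 165.

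Unsaturated fatty acids need auxiliary enzymes. DECR1, the 2,4-dienoyl-CoA reductase, had HSPD36249_s_at at 763 and 568 on the control arrays, against at 69.9, 48.2 and 920.2 on the failing arrays. Failing 1a and 1b were far below control while failing 2a was above it, and the difference was −2.17 ± 1.49 (adjusted p = 0.712). Without failing 2a it was −3.50 (adjusted p = 0.149), from arrays that may share a pool, and without failing 1b it was −1.38. A dim probe set of DECR1 read 217 and 403 in control and 106, −5.42 and 179 in failing myocardium, lower on every failing array. HSPD36249_i_at was also lower on each, but below 0 on all 5 arrays. ECI1, an enoyl-CoA isomerase, read 719.9 and 134.5 against 283.4, 283.1 and 1021. ECI2, its peroxisomal and mitochondrial relative, was dim at 48.8 and 89.5 in control and −89.4, −90.8 and −44.2 in failing myocardium. No array of the failing group reached the floor for ECI2, and both control arrays did.

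Electrons from the acyl-CoA dehydrogenases pass to the electron transfer flavoprotein, made of the subunits ETFA and ETFB. ETFA read 1587 and 1234 on the control arrays, against 1085, 1219 and 572 on the failing arrays. It was lower on every failing array, failing 1b lying close under control 2a, with a difference of −0.62 ± 0.47 (adjusted p = 0.745), or −0.28 without failing 2a. ETFB had 2 probe sets, both with groups that did not overlap, in opposite directions. HSPD6841_g_at read 844 and 903 on the control arrays, against 2275, 1948 and 2360.4 on the failing arrays. The control mean was 873 ± 41.4 (SD, n = 2) and the failing mean 2194 ± 218 (SD, n = 3), 2.51-fold higher, with a log2 difference of 1.32 ± 0.29 (SE, unadjusted p = 0.00471). Its adjusted p of 0.305 in limma was the lowest among the listed genes.

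HSPD6841_at of the same gene read 724 and 1062 on the control arrays, against 551, 499 and 399 on the failing arrays, 1.83-fold lower, with a difference of −0.87 ± 0.50 (adjusted p = 0.658). The annotation ties both to the same human ETFB sequence entry, and the array does not show which follows the transcript. ETFDH, which passes the electrons on to ubiquinone, had 1 dim probe set at 34.9 and 68.9 in control and 135, −314 and 322 in failing myocardium.

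**Figure D3:**
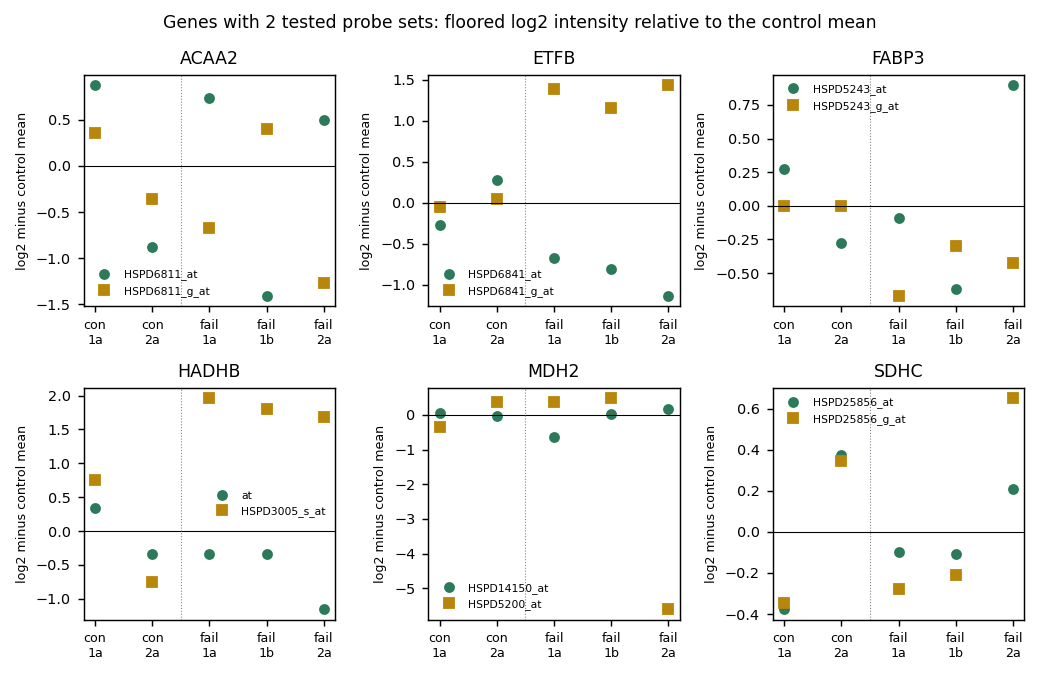
Floored log2 intensity of each array minus the mean of the control arrays (y axis) for the 6 genes with 2 tested probe sets, with arrays along the x axis and the dotted line between control and failing. ETFB and HADHB have probe sets on opposite sides of 0 on all 3 failing arrays, and the probe sets of SDHC move together.

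Genes with 2 tested probe sets allowed a check within the gene. Of 6 such listed genes, 3 (ACAA2, MDH2 and SDHC) had differences of the same sign and 3 (ETFB, FABP3 and HADHB) did not, and the median gap between probe sets was 0.98 on the log2 scale. Over all 357 genes with several tested probe sets, 173 (48.5%) had the same sign and the median gap was 1.04. For the listed genes and for the array as a whole, about as many genes disagreed between probe sets as agreed. Probe sets of relaxed design (r_at), which read LPL, LIPE, ECHS1 and UCP3 here, had a median absolute difference of 0.74 between the groups over all 307 tested, against 0.51 for the 1111 unique (at) probe sets.

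Of the regulators and uncoupling proteins, UCP2 and UCP3 were measured, which are neighbours in the dog genome and encode mitochondrial carriers. UCP2 read 776 and 899 on the control arrays, against 1961, 357 and 1896 on the failing arrays. Failing 1a and 2a were above control and failing 1b below it, with a difference of 0.40 ± 0.85 (adjusted p = 0.900). UCP3, the muscle form, read 546 and 508 in control and −354, 346 and 1163 in failing myocardium, a difference of −1.39 ± 1.80. Its failing arrays lay on both sides of control too, and its dim probe set ran from −1604 to 510.4.

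The citric acid cycle had 17 listed genes, of which 7 had probe sets and 4 were tested. OGDH, the first subunit of the 2-oxoglutarate dehydrogenase complex and a control point of the cycle, read 1420.1 and 1968 on the control arrays, against 845, 727 and 1169 on the failing arrays. All failing arrays were lower. The mean was 1694 ± 388 (SD, n = 2) in control and 914 ± 229 (SD, n = 3) in failing myocardium, 1.87-fold lower, with a log2 difference of −0.90 ± 0.39 (SE, unadjusted p = 0.0667, adjusted p = 0.549). It stayed between −1.14 and −0.67 in all 16 alternatives. DLST, the next subunit of that complex, was too dim to test and went the other way, with −27.8 and −254 in control and 49.1, 199.8 and 261 in failing myocardium.

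SDHC, a membrane anchor of succinate dehydrogenase, was bright, and no shift was detected. HSPD25856_at read 4801 and 8087 on the control arrays, against 5818, 5789 and 7192 on the failing arrays, and HSPD25856_g_at read 5286 and 8542 against 5537, 5815 and 10542. The differences were 0.00059 ± 0.28 and 0.05 ± 0.38. All failing values lay between the control arrays with the first probe set, and with the second all but failing 2a, which was above both. These differences turned negative under both other scalings. SDHA, the catalytic subunit, ran from −163 to 186 and was not tested.

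MDH2, the mitochondrial malate dehydrogenase, read 395 and 370.5 in control and 246, 387 and 432 in failing myocardium with HSPD14150_at (−0.15 ± 0.68). HSPD5200_at read 758 and 1242 against 1246, 1348 and −469.8, so its difference of −1.59 ± 1.99 came from failing 2a and was 0.42 without it. IDH3A, a subunit of isocitrate dehydrogenase, read 335 and 56.0 in control and 44.9, 313 and 295 in failing myocardium. SUCLG1, a subunit of succinyl-CoA ligase, was below 0 on all 5 arrays.

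The malate-aspartate shuttle, which moves reducing equivalents into the mitochondrion, held the 2 probe sets with the smallest standard errors among the 29. GOT1, the cytosolic aspartate aminotransferase, read 14241 and 13038 on the control arrays, against 15216, 16542 and 13693 on the failing arrays with HSPD3818_at. Failing 2a lay between the control arrays, and the difference was 0.15 ± 0.17 (adjusted p = 0.833), or −0.05 after scaling to the 75th percentile. MDH1, the cytosolic malate dehydrogenase, read 6042 and 5714 against 6294, 6927 and 4761, a difference of 0.01 ± 0.23 (adjusted p = 0.993) whose sign changed in 7 of 16 alternatives. A difference smaller than these errors was not detectable with 5 arrays, and 1 well above its error could be missed too. ETFB HSPD6841_g_at, at 1.32 ± 0.29, did not pass the adjusted threshold. The dim probe set of GOT1 ran from −627 to 121. GOT2, the mitochondrial aminotransferase, was below 0 on every array with both probe sets.

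**Figure D4:**
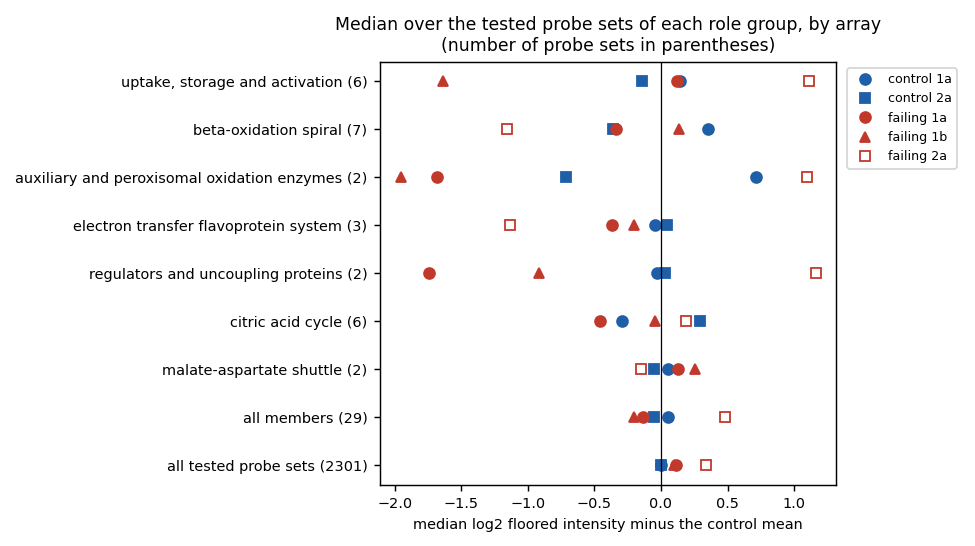
Median over the tested probe sets of each role group of the floored log2 intensity minus the control mean (x axis), by array; blue is control, red failing, and the open square is failing 2a. Failing 2a lies apart from failing 1a and 1b in most groups, at 0.48 over all 29 members against −0.13 and −0.20.

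By role, the median difference of the tested probe sets was −0.14 over 6 for uptake, storage and activation, −0.51 over 7 for the spiral, −0.62 over 3 for the electron transfer flavoproteins, −0.07 over 6 for the citric acid cycle and 0.08 over 2 for the malate-aspartate shuttle. It was −0.85 over 2 for the auxiliary enzymes and −0.50 over 2 for the regulators and uncoupling proteins. Most of these changed sign under some alternative. The median for uptake was 0.21 with failing 1a and 1b averaged, 0.061 with the replicate block, 0.70 without failing 1b and 0.0071 without control 1a. For the electron transfer flavoproteins it was 0.17 without the filter and 0.35 with 1 probe set per gene. For the cycle it was 0.073 without failing 1a and −0.41 after quantile normalization, and for the shuttle −0.12 after scaling to the 75th percentile and −0.0094 without failing 1b. For the regulators it was 0.40 without the filter. The median for the spiral stayed below 0, from −0.93 without control 2a to −0.14 without failing 2a. That of the auxiliary enzymes, over 2 probe sets in the main fit, also stayed below 0, from −2.03 to −0.13. By array, failing 1a, 1b and 2a were at −0.37, −0.20 and −1.14 for the electron transfer flavoproteins, all below the control arrays (−0.05 and 0.05), but only 3 probe sets stand behind these medians. For the spiral failing 1b, at 0.14, lay between the control arrays at −0.36 and 0.36. For uptake, failing 2a was at 1.12 and failing 1b at −1.64, so the failing arrays differed more among themselves than from control.

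Other genes of the same metabolism, from a list of 67 that are no members, were on the array for 24 genes and tested for 15, with 21 probe sets. None passed the adjusted threshold in limma (0 of 21), and 2 were higher and 0 lower at an unadjusted p under 0.05, where 9.47% of all tested probe sets lay. ACAT1, the thiolase of ketone body and isoleucine breakdown, read 259 and 252 on the control arrays, against 959, 1186 and 2406 on the failing arrays. It was higher on every failing array, 5.47-fold, with a log2 difference of 2.45 ± 0.57 (SE, unadjusted p = 0.00617, adjusted p = 0.305). ACOT2, a mitochondrial acyl-CoA thioesterase, read 3347 and 1517 in control and 4367, 4763 and 6403 in failing myocardium, 2.27-fold higher (1.18 ± 0.40, unadjusted p = 0.0289, adjusted p = 0.466). In the pyruvate dehydrogenase system, 3 of 7 probe sets were higher on every failing array and 0 lower: 1 of PDHA1, PDHX and PDK4, the kinase that restrains pyruvate entry. Of all 21, the groups did not overlap in 8 higher and 2 lower ones, the latter 1 probe set of FABP5 and 1 of HSD17B10. Over all 2301 tested probe sets 420 (18.3%) were higher and 264 (11.5%) lower. That split over all probe sets turned to 312 to 344 after quantile normalization and 279 to 388 after scaling to the 75th percentile. The split of the 21 was not examined under those scalings.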

How the data were processed

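The authors deposited 1 linear intensity per probe set and array, with values below 0, per the labels and the values. Scanner software, background method and scaling are not given in the sources used here. Of 4653 probe sets, 52 array controls were left out, and of the other 4601, 3724 had 1 gene symbol in the platform annotation, 72 several and 805 none. That annotation names human genes while the RNA was canine, so probes may bind unequally. Whether this was alike on all arrays was not tested. No scaling was added. Intensities were floored at 20 and put on the log2 scale, and probe sets with a mean at or above the median were compared with limma 3.58.1 in R 4.3.3 (lmFit, then eBayes with trend; tests were two-sided), with Benjamini-Hochberg adjustment over all 2301 and a threshold of 0.05. Errors of log2 differences are standard errors of that fit. The number of arrays limits the precision. Full values were given for tested probe sets with an unadjusted p under 0.05 or groups that did not overlap, and for the main gene of each step. Groups came from the sample titles. The members and lists were chosen with earlier results of these data known. Columns of other samples numbered 0, and no genome build belongs to the table.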

Additional observations from a re-analysis of the deposited data

How the results depend on the processing

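No listed gene passed the adjusted threshold in any of the 16 alternatives. Failing 1a and 1b may share a pool. With the pair averaged, the adjusted p in limma was 0.711 for ETFB HSPD6841_g_at, 0.743 for HADHB HSPD3005_s_at and 0.755 for CPT1B. The count over all probe sets, 2, was 4 with a floor of 100, 1 with a generalised log2, 6 without the filter, 1 with 1 probe set per gene, 0 with failing 1a and 1b averaged, 6 without an intensity trend, and 0 to 18 with single arrays left out (18 without failing 2a, 3 without control 2a, 0 without control 1a, failing 1a or failing 1b). The titles share the numbers 1 and 2 between groups, and with that number as a replicate block the count was 0. Deviations of same-numbered arrays correlated at r = 0.04 and only 2 numbers exist, so the numbers were not taken to pair the arrays. Members at an unadjusted p under 0.05 in limma, 3, were 6 without the filter. They were 2 without failing 1a, 5 without failing 1b and 5 without failing 2a. Over all tested probe sets the count, 218, was 344 without the filter, and 161, 153 and 365 without failing 1a, 1b and 2a. Members not overlapping, 3 higher and 6 lower, were 5 higher and 12 lower without the filter. With failing 1a and 1b averaged they were 5 higher and 6 lower. They were 3 higher and 7 lower without failing 1a, and 6 higher and 8 lower without failing 1b or failing 2a. Separation is easier with fewer arrays. Over all probe sets these counts were 602 higher and 618 lower without the filter, and 566 and 350 with the averaging. Without failing 1a they were 576 and 350, without failing 1b 574 and 345, and without failing 2a 642 and 485.

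Of the 29 tested member probe sets, 14 kept their direction in every alternative in which they were tested, among them CPT1B, both of ETFB, both of HADHB, HADHA, ETFA, OGDH and PLIN1. Of 453 values over the 29, 38 had the opposite sign, all among the other 15, and the cause was not tested. After quantile normalization FABP3 HSPD5243_at was −0.15, MDH1 −0.060 and the SDHC probe sets −0.032 and −0.0017. After 75th percentile scaling they were −0.14, −0.19, −0.20 and −0.15, and GOT1 was −0.054. With failing 1a and 1b averaged, ACAA2 HSPD6811_at was 0.083, ACSL1 0.15 and MDH1 −0.067, and with the replicate block MDH1 was −0.040. With single arrays left out the ranges were −0.93 to 0.82 for ACAA2, −1.39 to 1.004 for ACSL1, −0.73 to 1.69 for ECI1, −0.35 to 0.41 for FABP3 HSPD5243_at, −1.06 to 1.52 for IDH3A, −1.69 to 2.35 for LIPE, −0.63 to 4.69 for LPL, −0.10 to 0.17 for MDH1, −0.31 to 0.095 for MDH2 HSPD14150_at, −2.62 to 0.42 for MDH2 HSPD5200_at, −0.38 to 0.38 and −0.29 to 0.40 for SDHC, −0.021 to 1.21 for UCP2 and −2.66 to 0.27 for UCP3. Of the 53 probe sets of listed genes, 24 were too dim to test.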
